A study of Mus musculus with 15 samples.

Results

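The 10 genes followed here mark microglia, the resident macrophages of the brain, or encode complement component C1q. They were measured in the cerebellum (Ce) and the striatum (St) of mice from a line bred for high voluntary wheel running (Hi) and from a control line (Co). The genes were taken by symbol from the table of all genes: Cx3cr1, P2ry12, Csf1r, Trem2, Itgam, Tmem119, Aif1, C1qa, C1qb and C1qc, which are 10 of the 26628 genes listed. All of them were among the 15213 genes that passed the filter on low values. The lowest level of any of the 10 in a sample was 29 fragments, for Aif1 in a CeCo sample. Each microglia gene is known from other work to be used by brain macrophages, and Itgam and Csf1r also by other cells of the myeloid lineage.

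The samples came from male Hsd:ICR mice kept in cages with a running wheel before dissection. By the sample labels, wheel access began at about 6 weeks of age and lasted 7 days, whereas the authors' article gives an earlier age for its start. In all, 4 CeCo, 4 CeHi, 4 StCo and 3 StHi samples were used. The authors had removed 1 further StHi sample after a principal component analysis. Both lines derive from the outbred Hsd:ICR stock, the Co line was bred without selection, and the mice were not siblings. There was 1 selected and 1 control line, so an effect of selection and of drift between those lines cannot be told apart. Every mouse had a wheel, so the line and the amount of running cannot be told apart either. RNA came from whole dissected regions and not from sorted cells.

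Microglia live in close contact with neurons and read their surroundings through surface receptors. CX3CR1 binds the neuronal chemokine CX3CL1, P2RY12 binds ADP released at sites of injury, and CSF1R binds CSF1 and IL-34 and is needed for microglia to survive. C1q is the recognition unit of the classical complement pathway. It is built from the A, B and C chains together, binds to surfaces marked for removal, and is known in the brain for tagging synapses that microglia then engulf.

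The 3 C1q genes lie side by side on chromosome 4 of GRCm38, within 18.719 kb in the RefSeq annotation and all on the minus strand, in the order C1qb, C1qc and C1qa by rising coordinate. There C1qb spans chr4:136880126-136886200, C1qc chr4:136889801-136892936 and C1qa chr4:136895916-136898844. P2ry12 spans chr3:59216271-59262985, Cx3cr1 chr9:120048683-120068296, Itgam chr7:128062640-128118491, Trem2 chr17:48346401-48352276, Tmem119 chr5:113793729-113800396, and Aif1 chr17:35170986-35176083. P2ry12 lies within Med12l, which is read from the opposite strand. Whether the libraries kept the strand is not given in the sources used here, so fragments of the pair cannot be assigned with certainty.

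The 250 bases before the start given in the RefSeq promoter table are shown for the members that differed between lines when both regions were averaged and that this table, made for GRCm38.p6, lists, because these are the genes the line comparison turns on. Windows from that table were used for 7 of the 10 genes. C1qa and Tmem119 did not match it, and no window of Csf1r was used. The sequences are written 5′ to 3′ on the strand of the gene and end at the base before the start in the table. For C1qb and P2ry12 that start is the outer end of the gene given above, whereas for C1qc it lies 22 bases inside the gene, so the last 22 bases of its window belong to the annotated gene. The windows lie at chr4:136886201-136886450 for C1qb, chr4:136892915-136893164 for C1qc and chr3:59262986-59263235 for P2ry12. Capitals mark AGGAAGT or its reverse complement, an ETS-type sequence of the kind bound by PU.1, the transcription factor of myeloid cells.
C1qb: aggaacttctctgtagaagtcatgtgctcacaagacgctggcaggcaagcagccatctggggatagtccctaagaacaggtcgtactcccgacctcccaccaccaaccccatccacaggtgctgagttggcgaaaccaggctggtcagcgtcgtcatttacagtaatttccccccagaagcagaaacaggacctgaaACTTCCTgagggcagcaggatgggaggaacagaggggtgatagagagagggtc
C1qc: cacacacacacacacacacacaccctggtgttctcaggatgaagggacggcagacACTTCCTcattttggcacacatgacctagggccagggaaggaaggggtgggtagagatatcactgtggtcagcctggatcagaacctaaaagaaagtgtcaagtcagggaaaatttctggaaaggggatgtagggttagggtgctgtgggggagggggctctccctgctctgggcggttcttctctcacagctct
P2ry12: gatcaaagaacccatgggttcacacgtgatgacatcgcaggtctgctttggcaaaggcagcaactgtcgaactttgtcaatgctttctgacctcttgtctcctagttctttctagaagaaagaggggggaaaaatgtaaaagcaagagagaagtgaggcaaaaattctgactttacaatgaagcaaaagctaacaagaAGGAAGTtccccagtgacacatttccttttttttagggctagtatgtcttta
The match ended 46 bases before the start of C1qb and 45 before that of P2ry12. For C1qc it ended 188 bases before the start in the table and 166 before the outer end of the gene. On either strand these letters were found in 3 of the 7 member windows and in 7.69% of the 32851 windows of the same length in the table. The shorter GAGGAA, which overlaps it in part, was found in the windows of C1qb, C1qc, Itgam, Aif1 and Trem2 and in 23.3% of all windows. A match describes the letters and is not a binding site.

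The deposited values are fragment counts scaled for library size, called normalized counts here, and 1 fragment was worth 0.841 to 1.297 of them. Samples held 32909383 to 47485535 fragments. In a principal component analysis, the first component held 88.7% of the variance. All 9 striatal neuron genes examined were lower and all 9 cerebellar neuron genes higher in Ce, which matches the labelled dissections. Choroid plexus genes differed widely among the dissections, with a summed level of 7945 to 188997 in CeCo and 9032 to 168301 in CeHi against 8102 to 11152 in StCo and 11887 to 37721 in StHi.

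All 10 genes were lower in Ce than in St, in each line and averaged over both lines, and the samples of the regions did not overlap for any of them. The fold ranged from 3.01 for C1qc to 7.60 for Aif1, and the log2 difference between regions had a median of -2.06 over the 10 genes against 0.01 over all genes tested. At an FDR-adjusted P-value under 0.05, 80.2% of all genes differed between regions on average and 39.6% were lower in Ce. In the Co line the shares were 74.7% and 36.9%, and in the Hi line 70.5% and 35.1%, so that a call by itself sets these genes little apart. Their size did more: between 4.13% (Aif1) and 9.25% (C1qc) of the genes tested had a lower log2 difference. In whole tissue, fewer microglia and less RNA of these genes per microglial cell cannot be told apart.

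**Figure D1:**
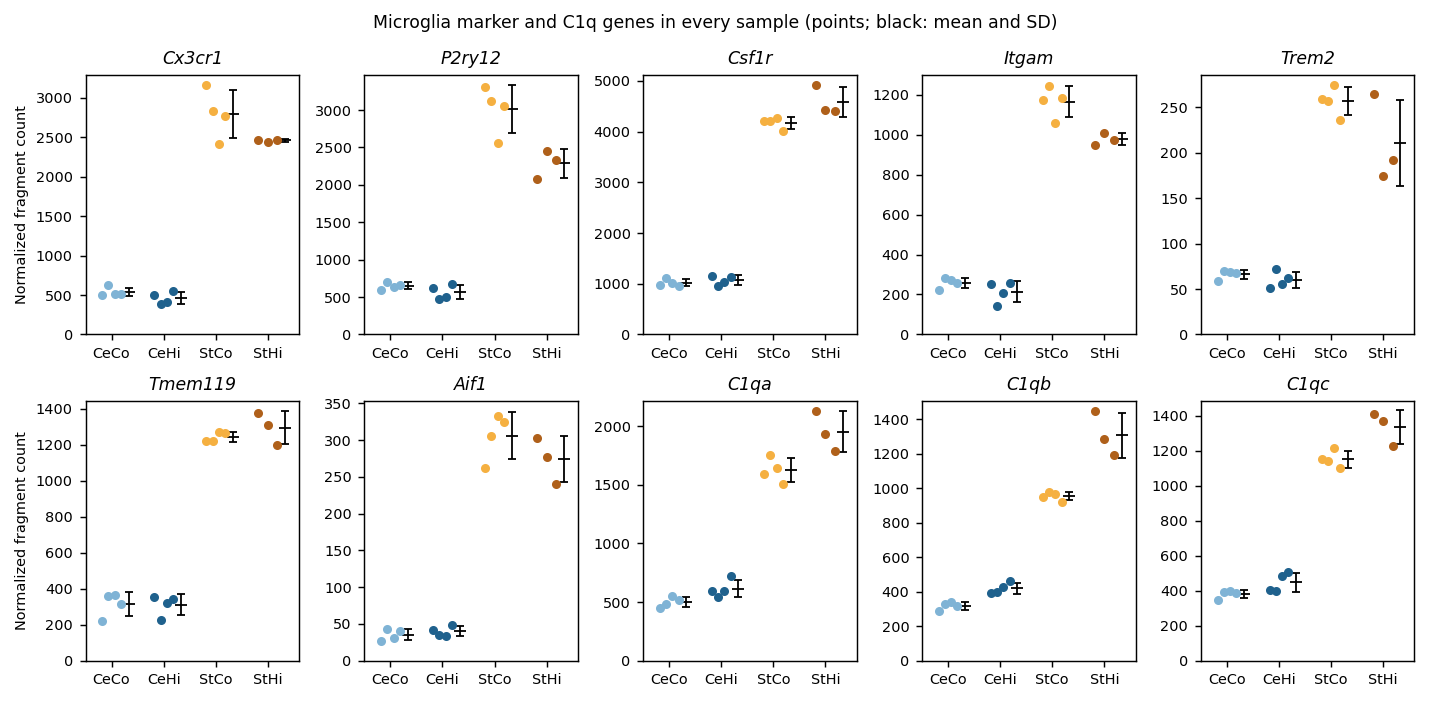
Normalized fragment counts (y axes, from 0, a scale for each gene) of the 10 genes in every sample of the 4 groups on the x axes. Points are samples and black bars are the mean and SD. All Ce points lie below all St points in each panel, and for C1qb the Hi points lie above the Co points in both regions.

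Among the receptors, Cx3cr1 stood at 502, 621, 513 and 516 normalized counts in CeCo and at 499, 381, 410.3 and 547 in CeHi. In StCo it stood at 3155, 2838, 2417 and 2764 and in StHi at 2468, 2437 and 2469.8. The St levels were thus several times the Ce levels, with no Ce sample near any St sample, and the 3 StHi samples lay within the range of StCo. The log2 difference between regions (Ce minus St) was -2.41 with a standard error (SE) of 0.077, a 5.31-fold lower level in Ce with an FDR-adjusted P-value of 1.4e-14.

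P2ry12 stood at 598, 706, 641 and 655 in CeCo, and at 624, 475, 501 and 672 in CeHi. In StCo the counts were 3313, 3115, 2555 and 3055, and in StHi they were 2073, 2457 and 2333. Every StHi sample was below every StCo sample, whereas the lines overlapped in Ce. Its region log2 difference was -2.12 (SE 0.078), which is 4.34-fold lower in Ce. Med12l, which surrounds it, moved the other way, by 0.53 on the log2 scale, with means of 2515 in CeCo and 1779 in StCo.

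Csf1r, on chromosome 18, gave counts of 979.5, 1111, 1017 and 959 in CeCo and 1161, 946, 1025 and 1133 in CeHi. They reached 4218, 4209.5, 4276 and 4002 in StCo and 4925, 4433 and 4398 in StHi. Each StHi sample exceeded each StCo sample by a small margin. The region log2 difference was -2.08 (SE 0.048). The share of 50-base windows of Csf1r transcripts that also occur in Hmgxb3, its neighbour on the opposite strand, was 14.3%, and Hmgxb3 itself differed between regions by -0.28 on the log2 scale.

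Itgam, which encodes the alpha chain CD11b of complement receptor 3, gave 224, 282, 272 and 259 in CeCo and 252, 142, 207 and 256 in CeHi. Its St counts were 1175, 1245, 1056 and 1184 in StCo and 948, 1008 and 971 in StHi. The lowest CeHi sample, at 142, was well below its group, and all StHi samples were below all StCo samples. The region log2 difference was -2.20 (SE 0.10). An annotated read-through transcript, Gm49368, shares 66.3% of the 50-base windows of Itgam, so counts of the gene may hold fragments of that transcript.

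Trem2, a receptor for lipids and lipoproteins that signals through the adaptor TYROBP, was low in Ce, at 58.7, 69.5, 69.1 and 67.7 in CeCo and 51.3, 71.7, 55.6 and 62.4 in CeHi. It stood at 259, 257, 275 and 237 in StCo and at 265, 175 and 192 in StHi. A single StHi sample was at the level of StCo and the others were lower. The region log2 difference was -1.86 (SE 0.10).

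Tmem119, a membrane protein used to separate microglia from other macrophages, gave 219, 359, 365 and 317 in CeCo and 352, 228, 320.5 and 346 in CeHi. It gave 1221, 1221, 1272 and 1265 in StCo and 1380.1, 1308 and 1200.5 in StHi. The lines overlapped in both regions. The region log2 difference was -2.04 (SE 0.11).

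Aif1, which encodes the calcium-binding protein IBA1 used to stain microglia, gave 27.0, 43.7, 31.6 and 40.1 in CeCo and 42.0, 34.8, 34.3 and 48.6 in CeHi. The St counts were 262, 306, 333 and 325 in StCo and 304, 278 and 241 in StHi. It had the widest gap between regions of the 10 genes, with a log2 difference of -2.93 (SE 0.12). The gap was -3.09 in the Co line and -2.76 in the Hi line, and the interaction of 0.33 (SE 0.24) did not pass (FDR-adjusted P-value 0.75).

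The C1q chains had the smallest region differences. C1qa gave 451, 483, 549 and 514 in CeCo and 593, 546, 598 and 724 in CeHi, and 1595, 1749.7, 1641 and 1504 in StCo and 2131, 1936 and 1785 in StHi. Its region log2 difference was -1.69 (SE 0.065). C1qb stood at 287, 329.9, 342 and 318 in CeCo, 394, 397, 429 and 459.7 in CeHi, 950.4, 976, 969 and 921 in StCo, and 1449, 1283 and 1191 in StHi, with a region log2 difference of -1.61 (SE 0.057). All Hi samples of C1qb lay above all Co samples of the same region. C1qc gave 349, 392, 396 and 387 in CeCo and 404, 399.8, 486 and 505 in CeHi. Its St counts were 1150.4, 1141, 1214 and 1099.7 in StCo and 1410.0, 1369 and 1229 in StHi. Its region log2 difference was -1.59 (SE 0.061), and here too no Hi sample overlapped the Co samples of its region.

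Divided by the length of the principal transcript, the levels can be compared between genes. In StCo, C1qa was the highest at 1560.0 ± 98.4 normalized counts per kilobase (SD, n = 4), followed by P2ry12 at 1284 ± 138 and by C1qc at 957 ± 39.2. Csf1r (888 ± 25.5) and C1qb (877 ± 22.5) lay next and differed by less than their SD. Cx3cr1 (622 ± 67.4) and Tmem119 (555 ± 12.4) followed, also within the SD of Cx3cr1. Aif1 stood at 349.9 ± 36.3, and Itgam (251 ± 17.0) and Trem2 (236 ± 14.5) were lowest and within an SD of each other. In CeCo the C1q chains held the first 3 places, with C1qa at 480.0 ± 40.2, C1qc at 317 ± 18.2 and C1qb at 293 ± 21.7 per kilobase. P2ry12 came next at 277 ± 19.0, within an SD of C1qb, and Aif1 was last at 40.7 ± 8.73. Lengths of single annotated transcripts were used, so these orders depend on which transcript is made.

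**Figure D2:**
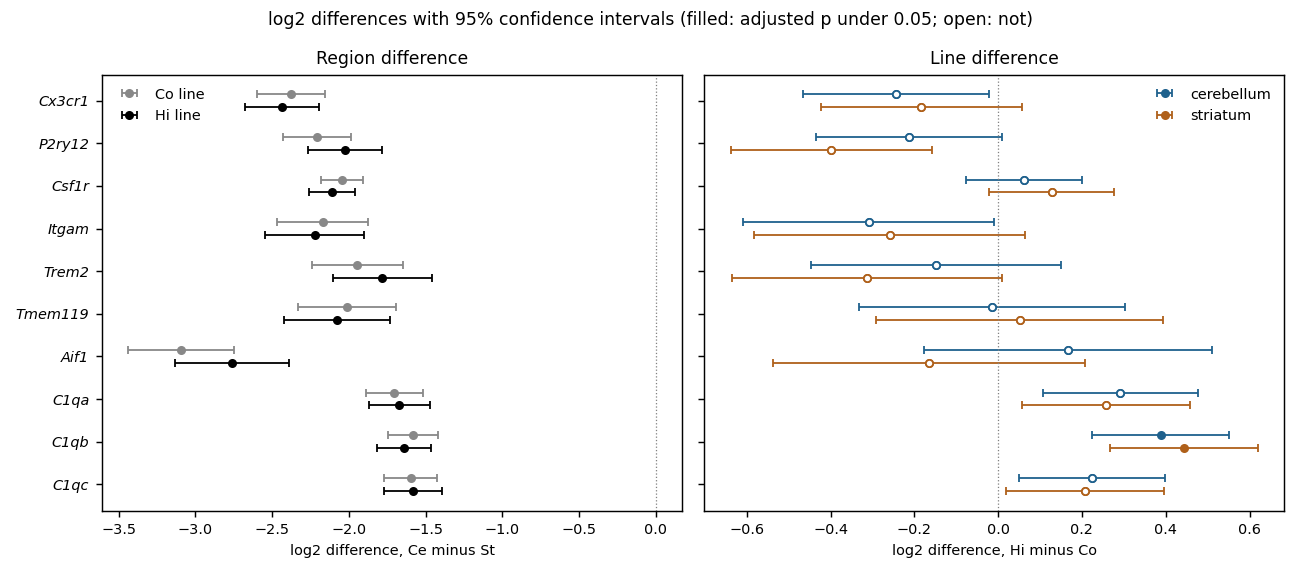
log2 differences of the 10 genes (y axis) between regions (left, Ce minus St, in each line) and between lines (right, Hi minus Co, in each region), with 95% confidence intervals. Filled points passed an FDR-adjusted P-value of 0.05. All region differences lie below -1.5, and the C1qb line differences of 0.39 in Ce and 0.44 in St are the only filled points on the right.

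Hi and Co follow the labels of the deposited samples, and for Cd300lf and Spp1, given below, the authors report the opposite line directions. Every direction between lines given here thus rests on those labels. By them, C1qb was higher in Hi in both regions. Its mean rose from 319 ± 23.6 (SD, n = 4) in CeCo to 419.7 ± 31.1 (n = 4) in CeHi, a log2 difference of 0.39 (SE 0.077, FDR-adjusted P-value 0.0052). In St it rose from 954 ± 24.5 (n = 4) to 1308 ± 131 (n = 3), a log2 difference of 0.44 (SE 0.083, FDR-adjusted P-value 0.0058). The line effects of the regions differed by -0.06 with a 95% confidence interval from -0.30 to 0.18, and this difference did not pass (FDR-adjusted P-value 0.94). C1qb was the only one of the 10 genes called in either region. Of all genes 5.94% were called in Ce (2.94% higher and 2.99% lower in Hi) and 2.66% in St (1.49% higher and 1.17% lower in Hi).

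The other C1q chains pointed the same way with smaller differences. C1qa had means of 499 ± 41.8 in CeCo and 615 ± 76.0 in CeHi (n = 4 each), with a log2 difference of 0.29 (SE 0.088) that missed the threshold (FDR-adjusted P-value 0.061). In St its means were 1622 ± 102 and 1951 ± 174, with a log2 difference of 0.26 (SE 0.095, FDR-adjusted P-value 0.19). For C1qc the log2 difference was 0.22 (SE 0.082, FDR-adjusted P-value 0.13) in Ce and 0.21 (SE 0.089, FDR-adjusted P-value 0.29) in St. C1qa in Ce passed with DESeq2 (FDR-adjusted P-value 0.027), without CeCo replicate 2 (0.043) and without CeHi replicate 1 (0.035).

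With the line effect averaged over both regions, 8.48% of all genes were called, 4.34% higher and 4.14% lower in Hi. This effect treats the Ce and St samples as independent. The labels do not say whether both regions came from the same mice. If they did, the standard errors of this effect may be too small. Of the 10 genes 3 were called higher: C1qb with a log2 difference of 0.42 (SE 0.057, FDR-adjusted P-value 0.00013), C1qa with 0.28 (SE 0.065, 0.013) and C1qc with 0.22 (SE 0.061, 0.035). P2ry12 was called lower, with -0.31 (SE 0.078, 0.021). These 4 genes are thus 1 receptor that was lower and the 3 chains of 1 protein complex that were higher in the selected line. The C1qc call was lost in 8 of the 15 fits that left out a sample, with an FDR-adjusted P-value of up to 0.086. The P2ry12 call was lost without CeCo replicate 1 (0.053) and without StHi replicate 0 (0.056).

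P2ry12 was 3009 ± 322 in StCo (n = 4) and 2288 ± 196 in StHi (n = 3), a log2 difference of -0.40 (SE 0.11, FDR-adjusted P-value 0.077). This missed the threshold in St alone and passed with DESeq2 (0.018), with sample quality weights (0.024), without StCo replicate 2 (0.029) and without CeHi replicate 3 (0.049). In Ce its log2 difference was -0.21 (SE 0.11, FDR-adjusted P-value 0.28). Med12l, which overlaps it on the other strand, differed between lines by -0.02 in Ce and -0.08 in St (FDR-adjusted P-values 0.94 and 0.78).

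Differences of the remaining 6 genes between lines did not pass in the averaged effect. Cx3cr1 had an averaged log2 difference of -0.21 (95% confidence interval -0.38 to -0.05, FDR-adjusted P-value 0.10), and Itgam one of -0.28 (-0.50 to -0.06, 0.11). Both passed under 1 or more alternatives, Cx3cr1 with sample quality weights (0.033) and without CeHi replicate 3 (0.035), and Itgam with DESeq2 (0.048). Trem2 had -0.23 (-0.45 to -0.01, 0.20). Csf1r stood at 0.09 (-0.01 to 0.20, 0.27), Tmem119 at 0.02 (-0.22 to 0.25, 0.95) and Aif1 at 0.00055 (-0.25 to 0.25, 0.999). These intervals hold differences in either direction for Csf1r, Tmem119 and Aif1, and a P-value above the threshold does not show that the lines were alike.

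Without regard to the test, the samples of the lines did not overlap for C1qb and C1qc in Ce, where 6.88% of all genes had every CeHi sample above every CeCo sample. In St the Hi samples lay above all Co samples for Csf1r, C1qa, C1qb and C1qc, against 7.2% of all genes, and below them for P2ry12 and Itgam, against 5.87%. None of the 10 genes had an interaction that passed, against 0.532% of all genes, and 0 had an unadjusted P-value under 0.05 in the limma fit or passed with edgeR or DESeq2.

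The ratio of 2 genes within a sample does not depend on library size. The ratio of C1qb to P2ry12 was 0.467 to 0.534 in CeCo and 0.631 to 0.856 in CeHi, and 0.287 to 0.379 in StCo and 0.510 to 0.699 in StHi. The lines did not overlap in this ratio in either region, but it joins a gene called higher in Hi on average with the one called lower. The share of all gene pairs that separate the lines in this way was not examined, for this or any other ratio given here. Each ratio of C1qb to another gene also carries the line difference of C1qb itself. The ratio of C1qb to Csf1r, another microglia gene, was 0.293 to 0.336 in CeCo and 0.339 to 0.419 in CeHi, and 0.225 to 0.232 in StCo and 0.271 to 0.294 in StHi, also without overlap. With Tmem119, another microglia gene, in place of Csf1r the lines overlapped in Ce, at 0.918 to 1.31 in CeCo and 1.12 to 1.74 in CeHi, but not in St, at 0.728 to 0.800 in StCo and 0.981 to 1.05 in StHi. Within the C1q complex the ratio of C1qb to C1qc was 0.821 to 0.864 in CeCo and 0.882 to 0.992 in CeHi, and 0.798 to 0.855 in StCo and 0.937 to 1.03 in StHi. In both regions all Hi samples thus had more C1qb per C1qc than the Co samples.

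**Figure D3:**
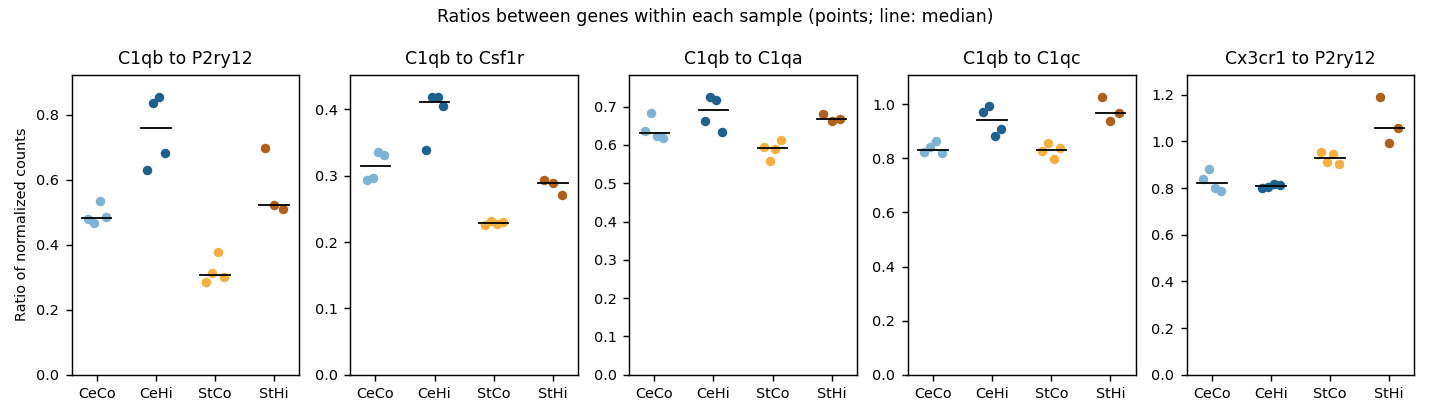
Ratios of normalized counts of 2 genes within each sample (y axes, from 0) for 5 pairs of genes in the 4 groups (x axes). Points are samples and lines are medians. For C1qb to P2ry12, C1qb to Csf1r and C1qb to C1qc, all Hi points lie above all Co points of the same region, whereas C1qb to C1qa overlaps between the lines in Ce.

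The ratio of Cx3cr1 to P2ry12 was 0.787 to 0.880 in CeCo and 0.799 to 0.819 in CeHi. In St it was 0.905 to 0.952 in StCo and 0.992 to 1.19 in StHi. The lines overlapped in Ce, whereas in St all Hi samples had more Cx3cr1 per P2ry12 than the Co samples. P2ry12 was itself called lower in Hi on average, and the share of gene pairs that separate the lines was not examined.

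Around the group means the 10 genes varied unevenly. Averaged over them, CeCo replicate 0 deviated by -12.5% and CeHi replicate 1 by -12.8% from the group, and CeHi replicate 3 by 14.7%. In St the samples stayed within 6.44% of their group means. Over the 15 samples the deviations of Cx3cr1 and P2ry12 had a Pearson correlation of 0.91, those of C1qa and C1qb 0.87 and those of C1qb and C1qc 0.87. In contrast P2ry12 and C1qb had 0.11, and Trem2 and P2ry12 had -0.41. These correlations are descriptions over 15 samples that share their library and depth within a sample.

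**Figure D4:**
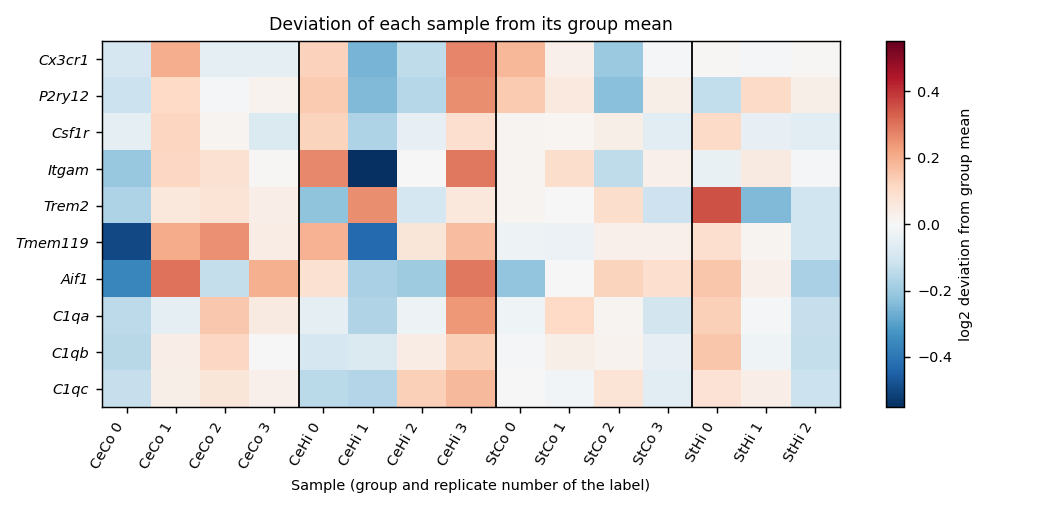
Deviation of each sample (x axis, group and replicate number) from its group mean on the log2 scale (colour) for the 10 genes (y axis). CeCo 0 and CeHi 1 are low and CeHi 3 is high for most genes, and among the StCo and StHi samples the largest deviations are those of Trem2, P2ry12, Aif1 and Cx3cr1.

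The genes whose deviations followed the mean deviation of the 10 genes most closely, of all genes tested outside the list, were Brp44l (Pearson r 0.93), E130304F04Rik (0.93), Cuedc2 (0.91), Hcls1 (0.89) and BC004004 (0.89), over 15 samples. Hcls1 encodes a protein of blood-forming and myeloid cells. Without the 2 samples of most extreme mean deviation its r was 0.73, against 0.81 to 0.92 for the others. None of these genes was in the gene lists used here.

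Of the other microglia genes examined, 18 of 19 tested were lower in Ce, against 39.6% of all genes. Their median log2 difference was -1.80 against 0.01 over all genes. The exception was Golm1, a protein of the Golgi membrane, at 3056 ± 245 in CeCo and 1159.7 ± 98.7 in StCo. Slc2a5, a fructose transporter, had the largest difference of this list with -2.79 on the log2 scale. P2ry13, a receptor for ADP that lies next to P2ry12 within Med12l, had -2.35. In the averaged line effect 4 of the 19 were called higher in Hi and 1 lower, against 4.34% and 4.14% of all genes. The median was -0.04 against -0.0041 over all genes.

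Fcrls, an Fc receptor-like protein, was higher in Hi in both regions, at 43.4 ± 3.04 in CeCo and 108 ± 35.01 in CeHi, and 191 ± 50.9 in StCo and 589 ± 263 in StHi. Its log2 differences were 1.24 in Ce (FDR-adjusted P-value 0.0081) and 1.56 in St (0.0046). Siglech, a lectin that binds sialic acid, was higher in both regions too, with 0.81 in Ce (0.0042) and 0.67 in St (0.045). Rgs10, a regulator of G protein signalling, was called higher in Ce (0.37, 0.018), and Slc2a5 in the averaged effect (0.40, 0.022). P2ry13 was lower in the averaged effect, as P2ry12 was, with -0.47 (0.0065).

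The ligands Cx3cl1 and Il34 were far lower in Ce. Cx3cl1, the ligand of CX3CR1 made by neurons, stood at 3112 ± 219.9 in CeCo and 39427 ± 4458 in StCo, a log2 difference of -3.54 over both lines. Il34, a ligand of CSF1R, stood at 322 ± 30.0 in CeCo and 2539.6 ± 151 in StCo, with -2.91. Csf1, the other ligand of CSF1R, went the other way, at 868 ± 103 in CeCo and 571 ± 35.2 in StCo, with 0.34 (FDR-adjusted P-value 0.00025). In CeHi it stood at 694 ± 83.7 and the line difference in Ce of -0.33 did not pass (FDR-adjusted P-value 0.052).

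The partners inside the cell and on its surface were lower in Ce. Tyrobp, the adaptor of TREM2, had a log2 difference of -1.46, and Itgb2, the beta chain that pairs with ITGAM, one of -1.28. Entpd1 and Nt5e, the surface enzymes that break down ADP and AMP, had -1.77 and -1.34. Syk, a kinase that acts after these receptors, had -1.95, and Apoe, an apolipoprotein that TREM2 binds, had -0.33. Adgrl1, an adhesion receptor listed as Lphn1, had -0.44. Of these 11 ligands and partners, 10 were lower in Ce, against 39.6% of all genes, and 1 was higher. With limma 0 were called in a line contrast. At an unadjusted P-value under 0.05 there were 3 in Ce, 1 in St and 2 averaged over regions, and edgeR called 1 in Ce and DESeq2 1 in Ce and 1 in St. The lowest adjusted P-value of a ligand or partner between lines was that of Csf1 in Ce.

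**Figure D5:**
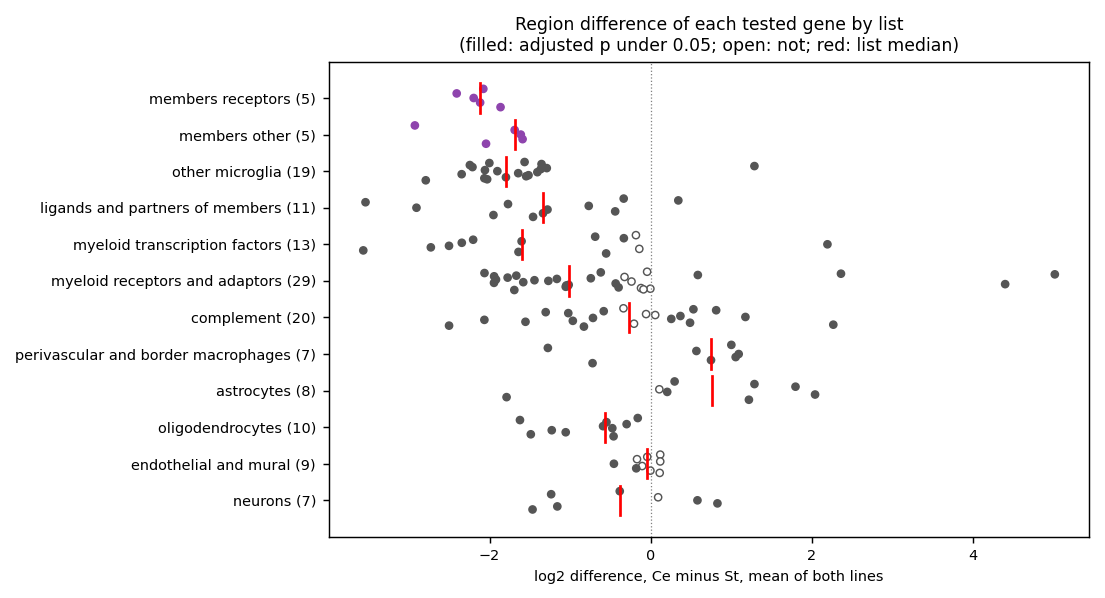
log2 difference between regions (x axis, Ce minus St, mean of both lines) of each tested gene in 12 lists (y axis, number of tested genes in brackets). Filled points passed an FDR-adjusted P-value of 0.05 and red lines are medians. The 10 genes and the other microglia genes lie left of 0 with the exception of Golm1, whereas 5 of 7 perivascular and border macrophage genes lie to the right.

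Transcription factors of myeloid cells were lower in Ce for 10 of 13, among them Irf8 (-2.34) and Spi1, which encodes PU.1 and is listed as Sfpi1 (-1.64), and Maf was higher (2.19). With limma 0 of the 13 were called in a line contrast, with 0 in Ce, 1 in St and 1 averaged over regions at an unadjusted P-value under 0.05, and DESeq2 called 1 in St and edgeR 0. Spi1 had a line difference of -0.15 in Ce and 0.05 in St. Of 29 myeloid receptors and adaptors 19 were lower in Ce and 4 higher, with a median of -1.02. Over all genes tested 39.6% were lower in Ce.

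Macrophages at the vessels and borders of the brain share several of the 10 genes, Csf1r, Aif1 and the C1q chains among them. Their own markers went mostly the other way, with 5 of 7 tested higher in Ce, including Mrc1 (0.75) and Lyve1 (1.05). The other 2 were lower, Cd163 (-1.28) and Stab1 (-0.72). Of all genes tested 80.2% differed between regions and 39.6% were lower in Ce. The summed level of the 12 genes in this list was 1294 to 1650.3 in CeCo, 1126 to 1590.5 in CeHi, 1088 to 1244 in StCo and 1157 to 1431 in StHi. No gene of the list was at 0 in all samples. Between lines, Cbr2 was lower in StHi (-1.24, FDR-adjusted P-value 0.0058) and Stab1 higher in the averaged effect (0.35, 0.028). Blood cells can carry Itgam and Csf1r: of 17 genes of monocytes, neutrophils and lymphocytes, 14 were too low to be tested. Of the 3 tested, 1 was higher and 1 lower in Ce. Among the untested, S100a8, S100a9 and Ngp averaged 20.7, 31.3 and 22.6 in CeCo and 2.21, 3.93 and 1.34 in StCo, whereas Plac8 and Cd79b were slightly lower in CeCo. All 3 red blood cell genes tested were higher in Ce. The share of blood in the samples was not tested.

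In the complement pathway beyond C1q, 20 of 35 genes were tested. In Ce 9 were lower, including C4a (-1.30) and C4b (-1.02), which the C1 complex cleaves. Another 7 were higher, including Serping1, the inhibitor of the C1 proteases (2.27), and C3 (0.81). Of all genes tested 80.2% differed between regions and 39.6% were lower in Ce, so these counts set the complement genes little apart. C4a and C4b are near-identical genes, so their separate counts are uncertain. The proteases that bind C1q were low: C1ra did not differ between regions (-0.34, FDR-adjusted P-value 0.24), and C1rb and C1s1, listed as C1s, had at most 5 and 43 fragments in a sample and were not tested.

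Between lines, C3ar1, the receptor for the C3a fragment, was lower in Hi in both regions, while C1qb was higher. It stood at 38.3 ± 7.76 in CeCo and 19.7 ± 6.66 in CeHi, and at 71.9 ± 19.2 in StCo and 23.4 ± 5.01 in StHi. Its log2 differences were -0.97 (FDR-adjusted P-value 0.044) and -1.57 (0.0051). Cfp, which stabilises the alternative pathway, was higher in the averaged effect (0.30, 0.036). Csmd2 (0.34, 0.0066) and Susd4 (0.26, 0.030), which encode membrane proteins with complement control domains, were higher in CeHi than in CeCo. C3, C4a and C4b had no call between lines.

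Genes of other proteins with a C1q domain went in both directions. Of 16 tested, 8 were lower and 4 higher in Ce, from -6.07 for Cbln2 to 10.8 for Cbln3, both of them cerebellins that neurons secrete. These counts are near the shares over all genes, of which 80.2% differed between regions and 39.6% were lower in Ce. In the averaged line effect 1 was called, Mmrn2 of endothelial cells (0.76, FDR-adjusted P-value 0.0050). Cbln1 was called higher in StHi than in StCo (0.51, 0.026).

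Of the genes next to the C1q genes on chromosome 4, Ephb2, an ephrin receptor, was lower in CeHi (-0.39, FDR-adjusted P-value 0.029). It did not pass in St (-0.11, 0.75) and was called lower in Hi in the averaged effect (-0.25, 0.046). Epha8, Zbtb40 and Kdm1a had no call between lines, with averaged log2 differences of -0.20, 0.09 and -0.03.

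Among receptors and signals of activated myeloid cells, calls between lines went in both directions. Spp1, which encodes osteopontin and is also made by other brain cells, was higher in Hi (1.16 in Ce, FDR-adjusted P-value 0.0090, and 2.12 in St, 0.00018). Il1a was lower in StHi (-1.28, 0.015), at 51.5 ± 9.96 in StCo and 20.9 ± 6.27 in StHi. Fcer1g, an adaptor of Fc receptors, was higher in StHi (0.73, 0.043). Cd300lf fell from 60.1 ± 5.99 in StCo to 3.09 ± 3.21 in StHi, with a log2 difference of -4.17 (2.15e-06). The authors report the opposite line directions, with Cd300lf higher and Spp1 lower in Hi in both regions. All Hi and Co directions given here follow the sample labels, and the cause of this disagreement was not tested. Itgal was lower in StHi (-1.57, 0.0015), Il10ra was lower in CeHi (-0.59, 0.0023) and Cd180 was lower in the averaged effect (-0.69, 0.032). Of the 22 genes in the list of activated microglia, 10 were tested and 12 were too low, among them Cst7, Clec7a and Tnf with at most 6, 17 and 2 fragments in a sample.

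Genes of other glia also differed between the lines. The summed level of 10 oligodendrocyte genes was 206872 to 296407 in StCo and 314273 to 353962 in StHi, without overlap, and 186666 to 227266 in CeCo and 212153 to 269645 in CeHi. Olig1 was called higher in Hi in both regions (0.30 in Ce, FDR-adjusted P-value 0.028, and 0.43 in St, 0.0067). In the averaged effect Olig2 and Mbp were called as well, and Gfap and S100b of astrocytes were called higher with 0.29 (0.035) and 0.19 (0.032). Their part in the line differences of the C1q genes and P2ry12 was not tested.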

How the data were processed

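Paired-end reads of single cerebellum and striatum samples were aligned by the authors to GRCm38 with TopHat2, and gene values were made with Cuffnorm 2.2.1. The deposited values are an expression signal, fragment counts that the authors scaled for library size but not for length, although the table is named for FPKM. A common step per sample divided 99.6% to 99.8% of its low values (tolerance 0.1 of a step), so fragments could be recovered, 32909383 to 47485535 per sample. Counting error and variation between mice were not separated.

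Genes with at least 1 CPM in 3 or more samples (15213 of 26628) were tested. Values were scaled with TMM factors (edgeR 4.0.16) and fitted as log2 of the value plus 1 with limma 3.58.1 in R 4.3.3 (trend, robust), with 1 mean per group and all 15 samples. P-values were two-sided and adjusted by the Benjamini-Hochberg false discovery rate (FDR) over all genes tested, with a threshold of 0.05. Standard errors are those of the model, and fold changes are on the log2(value + 1) scale. Contrasts were Hi minus Co in each region, their mean, their difference (interaction) and Ce minus St, with lines as given by the sample labels. In simulated data for the line contrast in Ce, 98.5% of 200 genes with a log2 change of 1 were recovered among 15213, and 4.37% of the calls were false.

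Alternatives were other pseudocounts, filters and scalings, other moderation, sample quality weights, edgeR and DESeq2 1.42.0 on recovered fragments, replicate blocks, the compared groups alone, and each sample left out. Across genes, same-numbered CeCo and StCo samples deviated together (correlations 0.171 to 0.278 over 4 pairs), while CeHi and StHi samples did not (-0.0751 to 0.0513 over 3 pairs). Same-numbered samples of different lines had -0.221 to 0.183 (CeCo and CeHi) and -0.0432 to 0.196 (StCo and StHi). The labels do not say whether a number marks the same mouse, so pairing in the control line is not established.

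The members and gene lists were chosen with earlier results of these data known. Named genes were the members, their ligands and partners, list genes called in a line or interaction contrast, list genes with the smallest adjusted P-values between regions, neighbours of the C1q genes, and the 5 genes most like the members. Genes were matched by symbol, 12 of 253 list genes under an older symbol. Some genes meeting this rule are not reported here by name.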

Additional observations from a re-analysis of the deposited data

Results flagged for a closer look

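In CeCo, the Cx3cr1 normalized count of 621 in replicate 1 stood apart from the other 3 samples, which lay at 502 to 516. Its gap to the nearest sample was 0.888 of the range of the group, above Dixon's critical value for 4 samples. It was the only one of 30 groups of samples examined in this way that exceeded the value, and chance alone flags about 1 in 20. The replicate was 8.05% above its group over the 10 genes together.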

How the results depend on the processing

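All 10 genes stayed lower in Ce under every alternative, and C1qb stayed called higher in Hi in both regions and on average. C1qa stayed called higher in Hi in the averaged effect under each alternative run. The number of the 10 genes called was 2 instead of 1 in Ce with DESeq2, and 2 instead of 1 in St with DESeq2 and with sample quality weights. Leaving out single samples gave 1 to 2 called genes in Ce, 1 to 2 in St and 2 to 4 averaged over regions. Of all genes, DESeq2 called 1389 in Ce, 709 in St and 277 for the interaction, against 903, 405 and 81, and quality weights called 740 in St and 182 for the interaction. Leaving out single samples gave 42 to 117 interaction genes. The cause was not tested.

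With the replicate block shared by all groups, 1 of the 10 genes was called in Ce, 1 in St, 4 averaged over regions and 10 between regions, and all genes called numbered 948, 374 and 1401 in the line contrasts and 73 for the interaction. The block within line gave 54 interaction genes, and interactions of -0.0471 for C1qa and -0.042 for C1qc, both near 0 and without a call. Neither block changed a call of the 10 genes in the contrasts it gave. The shared block ties equal numbers across the lines, which are different mice, and the block within line gives no line contrast. Line calls that allow for a pairing of the regions were thus not tested, and the averaged line effect treats Ce and St samples as independent.

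Differences near 0 that did not pass changed sign under some alternatives. The averaged line effect of Aif1 was -0.0067 with a pseudocount of 5, -0.0422 with quality weights, -0.0049 with edgeR and -0.0035 with DESeq2. With quality weights Tmem119 was at 0.0281 in Ce and 0.0138 for the interaction. Over samples left out, the averaged effect ranged from -0.0539 to 0.0573 for Aif1 and from -0.0586 to 0.0956 for Tmem119, whose effect in Ce ranged from -0.1756 to 0.1327. Interactions ranged from -0.1545 to 0.022 for Cx3cr1, -0.1527 to 0.1297 for Itgam, -0.234 to 0.0743 for Tmem119, -0.0531 to 0.0993 for C1qa, -0.1216 to 0.021 for C1qb and -0.0479 to 0.0666 for C1qc. A cause was not tested.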

Other observations

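Some genes of immune cells had region levels unlike those of the microglia genes. Cd4, known as a T cell coreceptor, had mean normalized counts of 8.09 in CeCo and 9.56 ± 3.86 (SD, n = 4) in CeHi. In StCo the mean was 1969 ± 443 (n = 4) and in StHi 1669.8 ± 221 (n = 3). The T cell genes Cd3e, Cd3d and Cd8a had at most 2, 3 and 3 fragments in any sample. Itgal, an integrin of leukocytes, was higher in Ce, at 357 ± 73.0 in CeCo and 24.9 ± 11.5 in StCo. Cd300lb, a receptor of myeloid cells, stood at 78.5 ± 26.0 in CeCo and 0.686 ± 1.37 in StCo.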
